A study of Arabidopsis thaliana with 12 samples.

Results

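The genes described here are PRXIIE (AT3G52960), CCS (AT1G12520), GLDH (AT3G47930) and NTRC (AT2G41680), nuclear genes of Arabidopsis thaliana for proteins that remove reactive oxygen or pass electrons between thiols. They were chosen by locus from the 689 genes that had a probe of their own in the platform annotation, on an array of 3439 probes in all, and each of the 4 genes had 1 such probe. The arrays were hybridised with total RNA of wild-type plants, ecotype Columbia 0, from 2 conditions with 6 samples each. In the recovery group, plants spent 24 h at 4 °C under medium light and were then moved to 20 °C, under the same light, for a further 24 h. In the cold group, plants were taken after the 24 h at 4 °C, a combination of light and chilling that the labels call photoinhibitory, a term for light that harms photosystem II. Both groups thus carry the cold treatment, and no sample from plants never chilled was analysed here.

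Illuminated chloroplasts pass some electrons to oxygen, which gives superoxide and then hydrogen peroxide, and chilling adds to this because carbon fixation slows while light is still absorbed. Superoxide dismutases turn superoxide into hydrogen peroxide, and peroxidases that draw on ascorbate or on protein thiols turn the peroxide into water. PRXIIE is a type II peroxiredoxin of the chloroplast stroma, an enzyme that reduces peroxides with a reactive cysteine. CCS is the chaperone that loads copper into copper/zinc superoxide dismutases. GLDH, in the inner mitochondrial membrane, carries out the final step of ascorbate synthesis and hands the electrons to cytochrome c. NTRC is a plastid enzyme that joins an NADPH-dependent thioredoxin reductase and a thioredoxin in a single chain, and it keeps 2-Cys peroxiredoxins reduced.

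The values in the table were linear signals between 0 and 100. The highest signal was 100 in every sample except cold sample 4, where it was 98.0. Whether each array had been scaled or capped to its brightest probe was not stated. Signals were lower in recovery arrays as a whole: the median probe of a sample ranged from 0.0971 to 0.128 in recovery and from 0.276 to 0.315 in cold, and 11.3% to 16.4% of probes were listed at 0 in recovery samples, against 5.26% to 6.57% in cold samples. For this reason each change is reported after quantile normalization, as differences in log2(signal + 0.0415), and are relative to the other probes of the array. In all 6 recovery and all 6 cold samples the closest other sample of the group was the neighbour in number (1 with 2, 3 with 4, 5 with 6), so each such pair was averaged and n is 3 per group. Over all probes the deviations of paired samples from their group mean correlated at -0.033 to 0.063 in recovery, against 0.34 to 0.50 in cold. Over the brightest 25% of probes they correlated at 0.29 to 0.43 in recovery and 0.72 to 0.85 in cold. Taking off the mean of the same 6 samples lowers such correlations, so values near 0 do not mark the recovery partners as unrelated. The labels name no tissue and do not say that the samples came from separate plants. The p-values therefore reflect the spread between arrays, some or all of which may be technical, and an array batch that coincided with a group cannot be told apart from it.

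Recovery was compared with cold to ask how transcripts of these genes stood after a day of return to 20 °C. Relative to the other probes, PRXIIE and CCS fell, GLDH rose and NTRC did not pass the test, so 2 of the 4 genes were called lower and 1 higher. Of all 3439 probes, 40.7% were called at the threshold of 0.05 on limma's Benjamini-Hochberg adjusted p, 21.4% as higher and 19.3% as lower. With so many probes called, 3 calls among 4 genes do not set them apart from the array. The median change of the 4 genes was -0.48, against 0.11 over all probes. RNA came from many cells at once, so fewer cells of a type and less RNA per cell cannot be told apart.

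The peroxiredoxin gene PRXIIE had the clearest fall. Its deposited signal had a lowest value of 0.0980, a median of 0.138 and a highest value of 0.238 in the 6 recovery samples, against 0.828, 0.957 and 1.04 in the 6 cold samples. The groups were far apart: the highest recovery sample, number 1, stood well under the lowest cold sample, number 2. Averaged by pair, the signal was 0.147 ± 0.0493 in recovery and 0.943 ± 0.0545 in cold (SD, n = 3 each), 6.42-fold lower in recovery. Part of this difference is shared by the whole array. After quantile normalization PRXIIE fell by 1.42 ± 0.19 in log2 units (SE, n = 3 per group; limma adjusted p = 2.49e-04), a 2.67-fold fall relative to the other probes. All 6 recovery signals lay below all 6 cold signals, as they did for 49.2% of all probes before any scaling, and the 3 averaged normalized values were also separated, as they were downwards for 23.7% of probes.

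The fall of PRXIIE passed the test under each of the 5 scalings tried. It was -1.16 when signals were brought to a common median and the pseudocount added afterwards (40.9% of all probes called), -1.25 with samples centred on their medians (51.5% called), -1.44 with cyclic loess (39.6% called) and -2.42 as deposited (64.4% called). As deposited the median probe itself stood at -0.86. Measured from the median probe, PRXIIE was at -1.56 as deposited and -1.53 after quantile normalization. Of the 690 probes with 1 gene and a known locus, 46 fell further than PRXIIE, so it was among the stronger falls without being at the extreme.

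CCS, the copper chaperone gene, was dim in recovery and its zeros followed the sample numbers. In recovery samples 1 to 6 the deposited signal was 0.0461, 0, 0.0509, 0, 0.0260 and 0, against 0.278, 0.346, 0.203, 0.264, 0.197 and 0.160 in cold samples 1 to 6. Every recovery sample lay below every cold sample, as for 49.2% of all probes. The 3 even-numbered recovery samples were listed at 0 while their odd-numbered partners were not. A total of 8 probes showed this pattern of zeros, and 8 others showed the opposite one, with zeros in the odd-numbered recovery samples only. What a listed 0 stands for was not stated. No mean or fold of the deposited signal is therefore given for CCS.

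After quantile normalization CCS fell by 1.30 ± 0.26 in log2 units (SE, n = 3 per group; limma adjusted p = 0.00274). The odd-numbered and even-numbered samples were also fitted apart, 3 against 3, after the zeros had been seen, a choice that by itself makes the fall larger in the even-numbered samples. The change was -2.06 in the even-numbered samples (33.5% of all probes called) and -0.53 in the odd-numbered samples (33.3% called), where it missed the threshold (limma adjusted p = 0.208). With 0 taken as missing the change was -0.79 (adjusted p = 0.0256, with 39.1% of the probes then tested called), and it was -1.71 under a halved and -0.92 under a doubled pseudocount. CCS was lower in recovery in all of these settings, while how far it fell relative to the array could not be fixed. Under the 5 scalings the change ran from -2.25 as deposited to -1.02 with cyclic loess, and it passed under all 5.

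**Figure D1:**
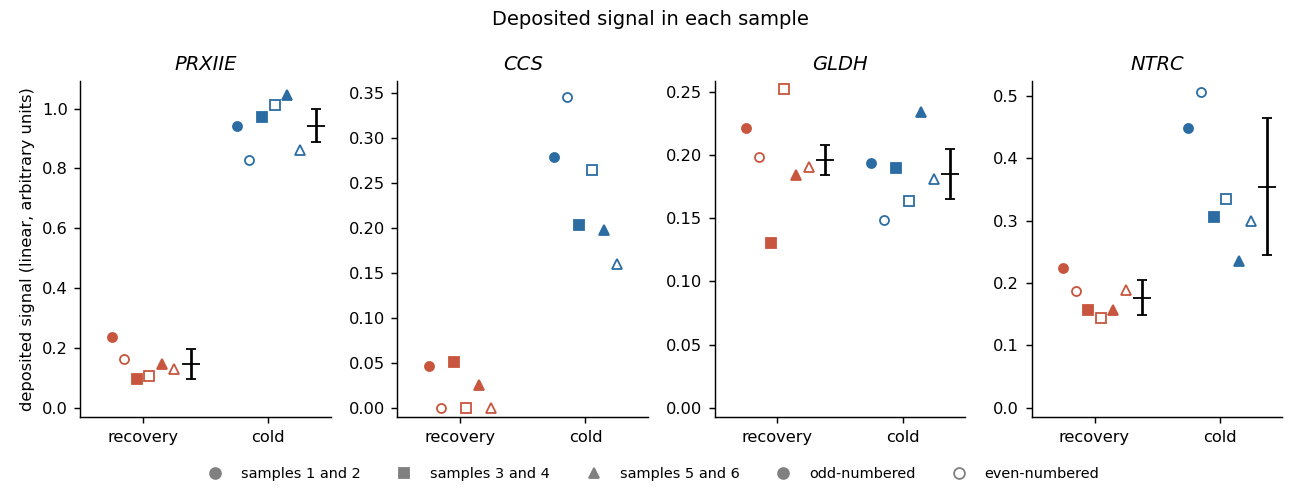
Deposited signal (linear scale, arbitrary units) of PRXIIE, CCS, GLDH and NTRC in each of the 6 recovery and 6 cold samples; symbols mark pairs of samples, open symbols even-numbered samples, and bars the mean ± SD of the 3 pair averages, left out for CCS because of its zeros. PRXIIE, CCS and NTRC lay lower in all recovery samples than in any cold sample, as did 49.2% of all probes. The GLDH groups overlap.

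GLDH, which completes ascorbate synthesis, was the only one of the 4 genes that rose relative to the array. Its deposited signal had a lowest value of 0.130, a median of 0.194 and a highest value of 0.253 in recovery, against 0.149, 0.185 and 0.234 in cold. The ranges overlap almost entirely, and both the lowest and the highest of the 12 signals were recovery samples, numbers 3 and 4 of a single pair. Averaged by pair the signal was 0.196 ± 0.0120 in recovery and 0.185 ± 0.0198 in cold (SD, n = 3 each). Since most probes were dimmer in recovery, a signal at the same height was a higher place on the array. After quantile normalization GLDH rose by 1.22 ± 0.21 in log2 units (SE, n = 3 per group; limma adjusted p = 0.00121), a 2.33-fold rise relative to the other probes.

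The rise of GLDH exists only in relation to the rest of the array. As deposited its change was 0.060 ± 0.16 (SE, n = 3 per group; limma adjusted p = 0.764), a setting in which 64.4% of all probes passed. The 4 settings that bring arrays to a common scale gave 1.22 to 1.31, and GLDH passed in all 4. Even as deposited its change stood above that of 86.0% of all probes. The 3 averaged normalized values were all higher in recovery, as they were for 30.5% of probes.

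NTRC held an intermediate place. The deposited signal had a lowest value of 0.144, a median of 0.172 and a highest value of 0.224 in recovery, against 0.235, 0.320 and 0.506 in cold. The groups did not overlap, as for the 49.2% of all probes with every recovery signal below every cold signal, and the highest recovery sample and the lowest cold sample were close. Averaged by pair, NTRC was at 0.176 ± 0.0281 in recovery and 0.355 ± 0.110 in cold (SD, n = 3 each), 2.01-fold lower in recovery. The spread among cold samples was wide, with samples 1 and 2 at 0.449 and 0.506 and the other 4 between 0.235 and 0.334.

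Relative to the array, the change of NTRC was 0.34 ± 0.22 in log2 units (SE, n = 3 per group; limma adjusted p = 0.236) and did not pass the test. As deposited it was -0.83 ± 0.24 (adjusted p = 0.0218) and passed as lower, as 58.9% of all probes did, and it stood 0.028 above the median probe of that setting. The sign thus depended on the scaling, and the miss does not show that NTRC stayed level. It was 0.51 without cold samples 1 and 2 (adjusted p = 0.112) and 0.21 without cold samples 5 and 6 (adjusted p = 0.528).

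**Figure D2:**
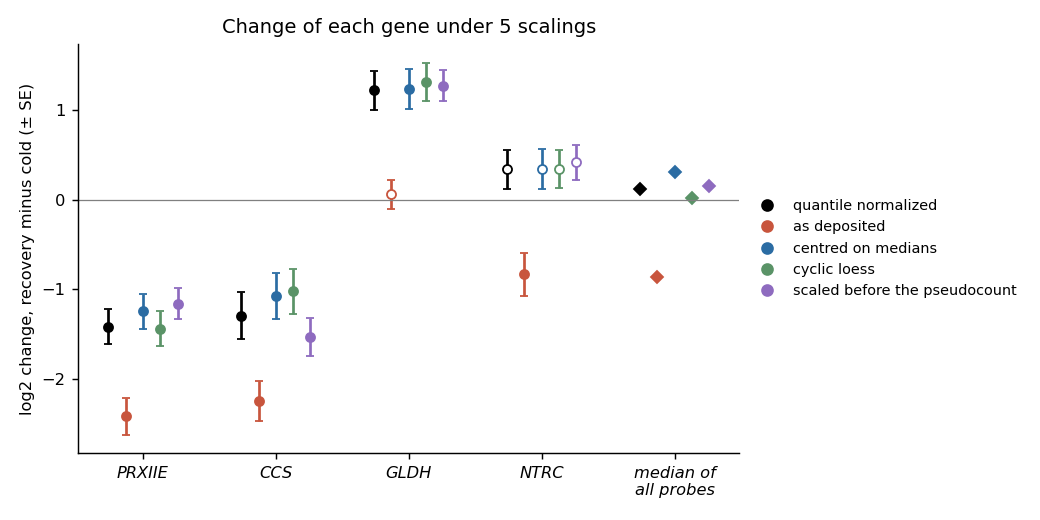
Log2 change (recovery minus cold, ± SE, n = 3 per group) of the 4 genes under 5 scalings, with filled circles for an adjusted p under 0.05 and diamonds for the median of all probes. PRXIIE and CCS were below 0 under every scaling, GLDH was above 0 but close to it as deposited (0.060), and NTRC changed sign as deposited (-0.83).

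The place of a probe within its own array needs no scaling between samples. PRXIIE stood between the 50.3 and 68.4 percentiles of its array in recovery and between the 78.5 and 84.4 percentiles in cold. GLDH moved the other way, with 58.4 to 72.7 in recovery and 26.7 to 44.2 in cold. For both genes the recovery and cold percentiles did not overlap. How many of all probes were separated by percentile was not counted. The 3 averaged normalized values were separated downwards for 23.7% and upwards for 30.5% of probes. CCS ran from 5.70 to 35.0 in recovery and from 31.5 to 53.0 in cold, with an overlap made by recovery sample 3. NTRC ran from 60.4 to 67.0 in recovery and from 44.3 to 65.1 in cold, where cold samples 1 and 2 reached into the recovery range. These percentiles describe where a probe's signal lay on its own array and are not transcript levels that can be compared between genes.

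**Figure D3:**
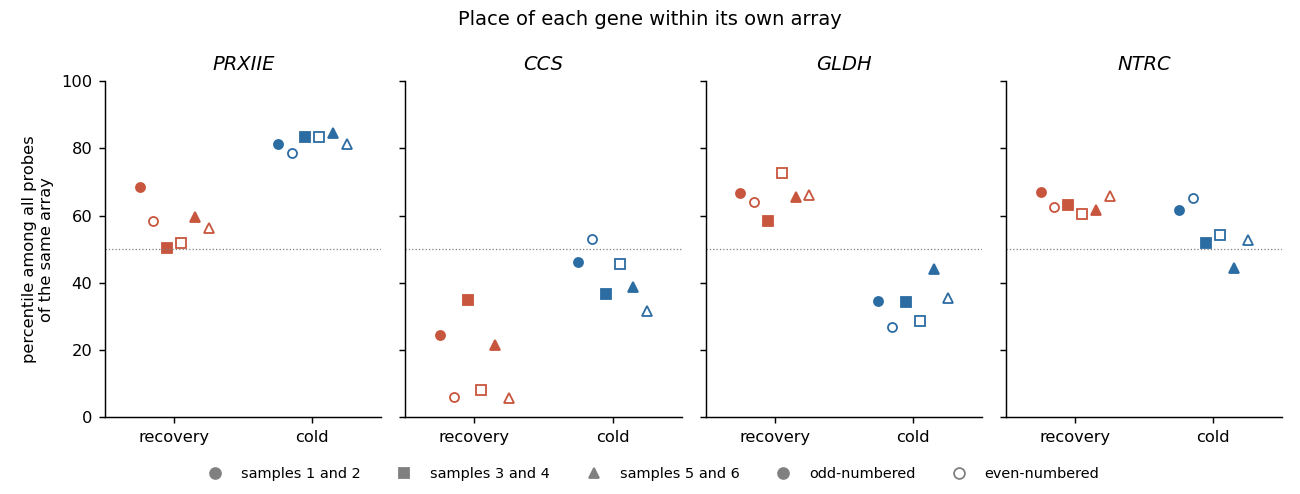
Percentile of each gene's probe among all 3439 probes of the same array, for the 6 recovery and 6 cold samples; symbols mark pairs and open symbols even-numbered samples. PRXIIE sat lower in recovery without overlap, and CCS sat lower with an overlap made by recovery sample 3. GLDH sat higher without overlap (58.4 and above in recovery, 44.2 and below in cold), and NTRC overlapped. How many of all probes were separated by percentile was not counted.

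Because any factor that scales a whole array cancels, apart from the pseudocount, in the ratio of 2 probes on it, the 4 genes were also compared pairwise within arrays. PRXIIE to GLDH had a log2 ratio of -0.35 ± 0.28 in recovery and 2.12 ± 0.12 in cold (SD, n = 3 each). The difference of -2.48 ± 0.18 (SE) is a 5.58-fold lower ratio in recovery. An exact permutation test (two-sided) gave p = 0.1, the lowest value possible with 3 against 3, or 0.12 after Benjamini-Hochberg adjustment over the 6 ratios. PRXIIE to NTRC was -0.24 ± 0.18 in recovery and 1.35 ± 0.45 in cold, a difference of -1.58 ± 0.28. PRXIIE thus fell against both genes by more than the spread between averaged samples.

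The ratios of CCS to GLDH and NTRC were lower in recovery too, but their size is set by the pseudocount, since CCS lay below it in 4 of 6 recovery samples. CCS to GLDH was lower in recovery by 2.31 ± 0.27, at -2.01 ± 0.13 in recovery and 0.30 ± 0.46 in cold, and the difference was -2.91 or -1.71 under a halved or doubled pseudocount. CCS to NTRC was lower by 1.41 ± 0.14, at -1.89 ± 0.23 in recovery and -0.48 ± 0.077 in cold, and the difference was -1.94 or -0.92 under these pseudocounts. GLDH to NTRC was higher in recovery by 0.89 ± 0.29, at 0.12 ± 0.10 in recovery and -0.78 ± 0.49 in cold. In all of these 5 ratios the 3 recovery values lay apart from the 3 cold values, and each had the same smallest exact p of 0.1. How many ratios of other probes were separated was not counted. Single probes were separated downwards in 23.7% and upwards in 30.5% of cases after quantile normalization. The ratios are formed from the same 4 genes, so they restate the single changes above and are not further support.

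The ratio of PRXIIE to CCS was 1.66 ± 0.39 in recovery and 1.83 ± 0.40 in cold (SD, n = 3 each), and the groups overlapped. Its difference of -0.17 ± 0.32 (SE; exact permutation p = 0.6) is small against its error, which does not show that both genes fell equally. It was 0.28 with the pseudocount halved and 0.044 without recovery samples 3 and 4. Taken as 12 independent samples, 4 of the 6 ratios gave an exact permutation p of 0.00216, the lowest possible with 6 against 6, and 0.00325 after adjustment. GLDH to NTRC then gave an exact p of 0.00649, with groups that overlapped. These smaller p-values take the 2 samples of a pair as independent. That was not borne out in either group, since the pair partner was the closest other sample for all 6 recovery and all 6 cold samples.

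**Figure D4:**
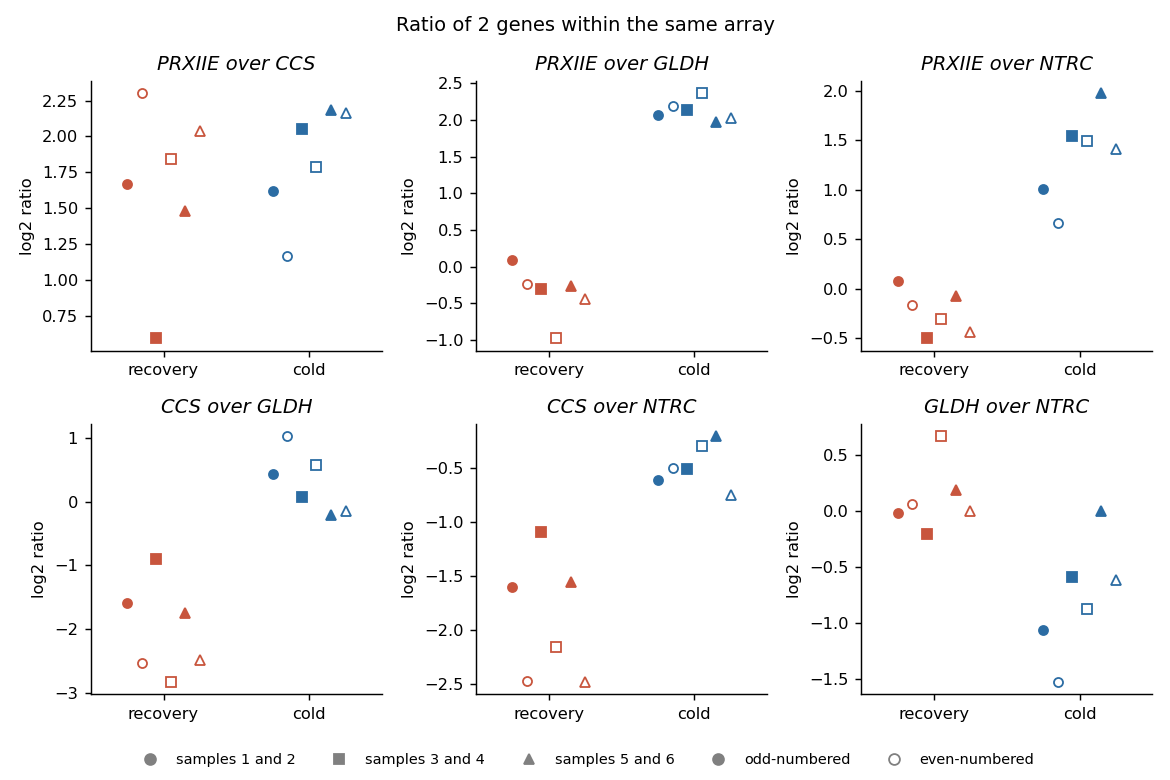
Log2 ratio of the deposited signals (each plus the pseudocount) of 2 genes on the same array, for the 6 recovery and 6 cold samples; symbols mark pairs and open symbols even-numbered samples. The ratios of PRXIIE and of CCS to GLDH and to NTRC were lower in every recovery sample than in any cold sample, and PRXIIE over CCS overlapped. How many ratios of other probes were separated was not counted.

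The 4 genes also differed in how evenly they were measured. On the normalized log2 scale the 2 samples of a pair differed by at most 0.30 for NTRC, 0.45 for PRXIIE and 0.69 for GLDH, but by up to 1.57 for CCS. The GLDH maximum came from recovery samples 3 and 4, whose deposited signals were 0.130 and 0.253. Between pair averages, GLDH was the tightest in recovery, with an SD of 0.024, against 0.19 in cold. For NTRC the SD was 0.070 in recovery and 0.30 in cold. PRXIIE had an SD of 0.25 in recovery and 0.17 in cold, both small beside its change.

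Other genes of the pathway were taken from 6 lists of antioxidant and redox genes with 112 entries, which cover peroxiredoxins, dismutases and copper delivery, catalases and peroxidases, recycling of ascorbate and glutathione, synthesis of antioxidants, and thioredoxins with their reductases. Only 6 entries had a probe with 1 gene, the 4 genes above and 2 more, so the lists as such are hardly measured: 1 of the 6 rose, 2 fell and 3 did not pass, a share close to the 40.7% of all probes called. The additional genes were SRX, sulfiredoxin, which restores overoxidised 2-Cys peroxiredoxins, and FTRB, the catalytic subunit of the ferredoxin-thioredoxin reductase that feeds electrons from photosystem I to plastid thioredoxins.

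FTRB had deposited signals from 0.262 to 0.390 in recovery and from 0.440 to 0.632 in cold, without overlap, again as for 49.2% of all probes. Its change of 0.46 ± 0.19 (SE, n = 3 per group; limma adjusted p = 0.0738) did not pass. It passed under 3 other scalings in opposite directions, at -0.60 as deposited (adjusted p = 0.0257), 0.57 with median centring (0.0342) and 0.73 with scaling before the pseudocount (0.0327). FTRB, of the reductase that draws on ferredoxin, and NTRC, which draws on NADPH, stood at 0.46 and 0.34 after quantile normalization, neither past the threshold. SRX was dim, at 0 to 0.116 in recovery and 0.0487 to 0.113 in cold. Its change of 0.53 ± 0.23 (adjusted p = 0.0927) did not pass. As deposited SRX passed as lower (-0.62, adjusted p = 0.00992), as 58.9% of all probes did. In that setting SRX and FTRB both stood above the median probe (-0.86). No catalase, ascorbate peroxidase, dismutase or glutathione reductase gene of the lists had a probe of its own here, so the partners of CCS and GLDH in these pathways were not analysed here.

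A list of plastid proteins regulated by thioredoxins had 14 entries and gave 4 measured genes. Of these, 3 rose and 1 fell, beside 21.4% higher and 19.3% lower among all probes. NADP-MDH, the malate dehydrogenase that exports reducing power from chloroplasts, had deposited signals from 1.38 to 2.31 in recovery and from 2.95 to 4.45 in cold. It fell by 0.68 ± 0.19 (SE, n = 3 per group; limma adjusted p = 0.0164), but stood at 0.22 with median centring and 0.48 with scaling before the pseudocount, so its direction depended on the scaling. The Calvin cycle genes PRK (1.44) and SBPASE (0.73) and the chlorophyll synthesis gene CHLM (1.42) rose, with limma adjusted p-values of 1.00e-04, 0.0102 and 3.79e-04. SBPASE turned negative as deposited (-0.29), whereas PRK and CHLM were above 0 under all 5 scalings. PRK passed under all 5, but CHLM missed the threshold as deposited (0.30, limma adjusted p = 0.113). The rises of PRK and CHLM were of the size of that of GLDH. Since GLDH is also needed to assemble respiratory complex I, 9 complex I entries were looked up, and complex I genes outside this list were not. Of the 9 entries, only NDUFV2 had its own probe. NDUFV2 was listed at 0 in 4 of 6 recovery and 4 of 6 cold samples and has no usable change. None of the 10 root and epidermis markers had a probe of its own.

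**Figure D5:**
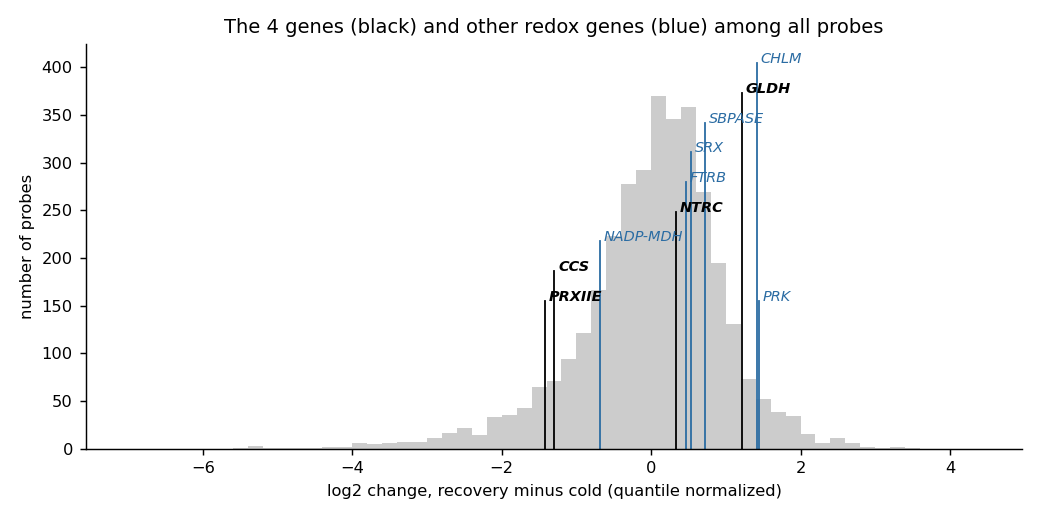
Number of probes by log2 change (recovery minus cold, quantile normalized) for all 3439 probes, with the 4 genes in black and the measured genes of the redox and thioredoxin-regulated lists in blue, NDUFV2 left out because of its zeros; line heights carry no meaning. PRXIIE (-1.42) and CCS (-1.30) lie on the lower flank, NTRC (0.34) near the centre, and GLDH (1.22) on the upper flank beside CHLM and PRK.

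Finally, the probes whose normalized log2 values ran most like each of the 4 genes over the 12 samples were named, among some 448 to 449 candidates above the lower quartile and never at 0. These correlations are descriptions, since the 12 points fall into the 2 conditions, share scaling and come in pairs. Nearest to PRXIIE were AT3G50270 (r = 0.97), AT4G32060 (r = 0.97) and AT4G18180 (r = 0.97), with changes of -2.43, -1.24 and -5.28. AT4G32060 turned to 0.14 under 1 scaling, unlike PRXIIE. Within the groups the r of these genes with PRXIIE was lower, at 0.76, 0.54 and 0.54 in recovery and 0.20, 0.50 and 0.34 in cold. The nearest to GLDH were AT2G04540 (r = 0.98), AT1G44830 (r = 0.96) and AT3G09080 (r = 0.95), which rose by 1.26, 2.01 and 1.95. AT2G04540 resembled GLDH also within the groups, with r = 0.73 over the 6 recovery and 0.77 over the 6 cold samples. Its deposited signal averaged 0.498 in recovery and 0.414 in cold. The other GLDH neighbours were looser within the groups. AT1G44830 had r = 0.52 in recovery and 0.45 in cold, and AT3G09080 had 0.036 and 0.67.

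CCS and NTRC had looser neighbours. CCS itself was at 0 in 3 recovery samples, while any candidate at 0 in a sample had been left out. Its lower r can therefore not be read as a trait of the gene. AT2G46050 (r = 0.87), AT5G27560 (r = 0.87) and AT5G47890 (r = 0.86) ran most like CCS and fell by 1.01, 0.96 and 1.09. Within the groups their r with CCS was 0.79, 0.69 and 0.78 in recovery and 0.33, 0.56 and -0.067 in cold. The genes most like NTRC were AT1G08845 (r = 0.83), AT2G30320 (r = 0.80) and AT1G30700 (r = 0.80), none of which passed the test. Within the groups their r with NTRC was 0.54, 0.44 and 0.17 over the 6 recovery samples and 0.79, 0.93 and 0.89 over the 6 cold samples.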

How the data were processed

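The deposited table holds 1 signal per probe and sample; the labels and the table do not record how the authors made this signal from the arrays, and its unit was read from the values. Of 3439 probes, 692 are listed with 1 gene, 870 with several and 1877 are unlisted; 690 of the first matched a locus through a RefSeq gene table, used for names only. They were turned into log2(signal + 0.0415), the pseudocount being the 10th percentile of positive signals, quantile normalized over 12 samples, averaged by pair, and fitted over all probes with limma 3.58.1 (lmFit, eBayes with trend; R 4.3.3) with Benjamini-Hochberg adjustment and a threshold of 0.05. The number of arrays limits the precision. Replicate numbers did not pair samples across groups (correlations of 0.056, 0.12 and -0.0050). Ratios within arrays used the deposited signals and exact permutation tests.

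The 4 genes, the lists (9, with 145 entries) and the pairing were chosen with earlier results of these data known. Named are the 4 genes, every list entry with its own probe, and the 3 probes most like each gene by Pearson correlation. On simulated data with 200 of 3439 probes changed, the fit recovered 100% of changes of 2 and 94% of changes of 1 on the log2 scale and called 12 of 3239 unchanged probes; with noise set by hand, this does not carry over to the real calls. Figures were drawn with matplotlib 3.10.9.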

Additional observations from a re-analysis of the deposited data

Results flagged for a closer look

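Among 44 tests for a single distant sample (11 genes, 2 groups, deposited and normalized values), of which chance flags about 1 in 20, 2 samples stood apart and neither was of PRXIIE, CCS, GLDH or NTRC. The deposited signal of SRX was 0.116 in recovery sample 1, against 0 to 0.0387 in the other 5 recovery samples. The normalized log2 value of CHLM was -1.66 in recovery sample 1, against -1.13 to -1.04 in the other 5.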

How the results depend on the processing

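PRXIIE kept its direction and its call in all 33 alternatives (-2.42 to -1.16). CCS was lower in all 32 alternatives in which it was tested and lost its call in 1, the odd-numbered samples alone (-0.53, adjusted p = 0.208), a setting chosen after seeing the data, as were the even-numbered samples and 0 taken as missing. GLDH lost its call in 1 of 32, as deposited (0.060), and NTRC turned negative in 1 of 33, also as deposited (-0.83); relative to the median probe of that setting they stood at 0.92 and 0.028. Both CCS and GLDH were absent where the dimmest 50% of probes were left out. As deposited 2216 probes passed (192 higher, 2024 lower), against 1399 (735 higher, 664 lower) after quantile normalization, 1772 (1237 higher, 535 lower) centred on medians and 1406 (887 higher, 519 lower) scaled before the pseudocount. With a sample or pair left out, 1084 to 1402 probes passed, and no call of the 4 genes changed. PRXIIE then ran from -1.54 to -1.29, CCS from -1.56 to -1.03, GLDH from 1.10 to 1.33 and NTRC from 0.21 to 0.51. The call of CCS came close to the threshold, with a limma adjusted p of 0.0482 without recovery sample 4. It was 0.0463 with all samples kept and pairs fitted as a random block. The replicate number as a block changed no call of the 4 genes (adjusted p of 8.06e-04 for PRXIIE, 0.00570 for CCS, 0.00297 for GLDH and 0.238 for NTRC). Ratios with CCS moved with the pseudocount: CCS to GLDH was -2.91 with it halved and -1.71 with it doubled, CCS to NTRC -1.94 and -0.92, and PRXIIE to CCS turned to 0.28 with it halved. Leaving out a pair, PRXIIE to CCS ran from -0.39 to 0.044. CCS lay near 0 in recovery, which limits how far its fall can be measured.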
